A study of Ovis aries with 12 samples.

Results

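The dorsal and the ventral hippocampus of unstressed sheep were compared gene by gene. The comparison used 3 libraries from the dorsal and 3 from the ventral hippocampus of adult control ewes of the Ile-de-France breed, which are 6 of the 12 libraries of the series, and all genes of the count table. Members were chosen by their labels and not by a measured value. The other 6 libraries come from the same 2 regions of ewes under chronic stress. Each library was made from RNA of 2 ewes pooled in equal amounts, so that 6 control and 6 stressed ewes are represented, and each ewe gave tissue of both regions. The labels name no genetic change and no drug for these ewes. The labels abbreviate the dorsal hippocampus as DG, and do not say whether that tissue was limited to the dentate gyrus. A p-value here measures the spread between pools of 2 ewes. Libraries of polyadenylated RNA held 19801665 to 53775720 counts in the control groups, so that 1 CPM, a count relative to the library total, rests on 19.8 counts or more. CPM values below are on totals scaled by TMM, a method that corrects for a few abundant genes, and are always given in the order of libraries 1 to 3. Changes are log2 fold changes of dorsal over ventral, so that a negative value is higher in ventral. The value after ± is the standard error, with 3 control libraries a region. It comes from a fit of all 12 libraries, in which the stressed libraries also bear on the estimate of the spread.

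The hippocampus is a long, curved structure whose cell layers (dentate gyrus, CA3, CA2, CA1 and subiculum) repeat along its length while its connections change. In rodents and primates the dorsal part is tied to cortical and spatial memory circuits. The ventral part exchanges fibres with the amygdala, the hypothalamus and the prefrontal cortex, and takes part in anxiety and in the control of the hormonal stress response. The regions differ there in the genes of neuropeptides, receptors, channels, adhesion proteins and transcription factors, and the gene groups below follow these roles.

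Markers of several subfields were present in the dorsal libraries. PROX1, which marks dentate granule cells, was measured at 4.77, 17.1 and 11.6 CPM in dorsal and 1.97, 1.19 and 13.0 CPM in ventral libraries. FIBCD1, a CA1 marker, stood at 5.32, 10.3 and 11.6 CPM in dorsal and 5.41, 1.89 and 2.63 CPM in ventral libraries. RGS14, a signalling regulator of CA2 neurons, gave 366, 284 and 237 CPM in dorsal and 77.6, 64.7 and 30.0 CPM in ventral libraries. The dorsal samples therefore held RNA of CA2 genes beside that of dentate genes, and PROX1 overlapped between the regions.

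The strongest variation among the libraries lay within groups. Within-group differences made up 73.0% of the variance of log2 CPM, and the regions separated on the second principal component, which held 18.9%. Dorsal control libraries lay between -38.9 and -32.0 on it and ventral ones between 26.7 and 57.8. The first component, with 50.0%, ran from -103 in ventral control 1 and -81.3 in dorsal control 1 to 105 in ventral control 3. Genes of the mitochondrial respiratory chain followed the main within-group axis downwards, with a median r of -0.970 over the libraries, and cadherin genes upwards, with a median of 0.906. COX5A, a subunit of cytochrome oxidase, was at 309, 86.9 and 117 CPM in dorsal and 487, 174 and 51.1 CPM in ventral control libraries. The part of this axis in the regional differences was not tested other than by the fits named below.

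**Figure D1:**
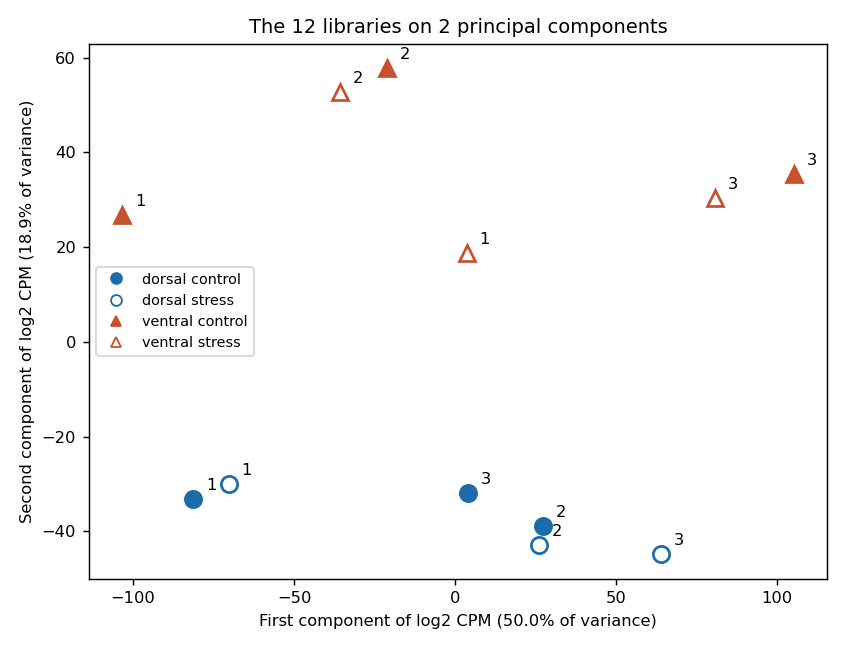
Scores of the 12 libraries on the first (x, unitless) and second (y, unitless) principal component of log2 CPM, 1 point per library. Colour and symbol give the region, and symbols are filled for control and open for stressed libraries. The dorsal control libraries lie at or below -32.0 on the y axis and the ventral control libraries at or above 26.7, while each group spreads along the x axis.

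In control ewes 178 of 17806 tested genes (1.00%) differed between the regions at an adjusted p under 0.05 by edgeR's quasi-likelihood test. Most were ventral genes: 134 (0.753%) were lower in dorsal and 44 (0.247%) were higher. Their changes were large, with a median log2 fold change of -2.22 among the lower and 1.69 among the higher genes, against -0.04 over all tested genes. Of the 178 genes 163 passed 2-fold and 53 passed 8-fold, and 45 of those 53 were lower in dorsal. All 178 had regional libraries that did not overlap, which held for 2077 genes (11.7%) in all, 969 higher (5.44%) and 1108 lower (6.22%) in dorsal. At an unadjusted p under 0.05 the count was 1544 (8.67%), of which 966 (5.43%) were lower and 578 (3.25%) higher in dorsal. Of the 178 genes 165 were protein coding, as were 15426 of the 17806 tested genes, and 6 were long non-coding RNAs. The genes nearest the threshold were LRRC3B and SEC14L1 inside, both with an adjusted p of 0.0498, and GALNT15 and LOC101116389 outside, with 0.0503. In bulk tissue, fewer cells of a type and less RNA per cell cannot be told apart.

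The number of calls moved with single libraries and with the model. The direction of the 178 genes did not, but their regional libraries did not overlap, so leaving out 1 library could hardly reverse it. The other models used the same counts, so the constant direction is no separate support. Without dorsal control 1, 2 or 3 the test called 27, 13 and 2 genes, and without ventral control 1, 2 or 3 it called 319, 24 and 113. Without dorsal control 3, ADCYAP1 was the 1 gene of the 178 that was still called. DESeq2 called 728 genes (249 higher and 479 lower), among them all 178, and the 6 control libraries fitted without the stressed ones gave 0 calls at a smallest adjusted p of 0.0506, with 1050 genes at an unadjusted p under 0.05. With the first factor of the within-group differences as a covariate, a choice made after seeing the data, 2003 genes were called (943 higher and 1060 lower), again with all 178.

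**Figure D2:**
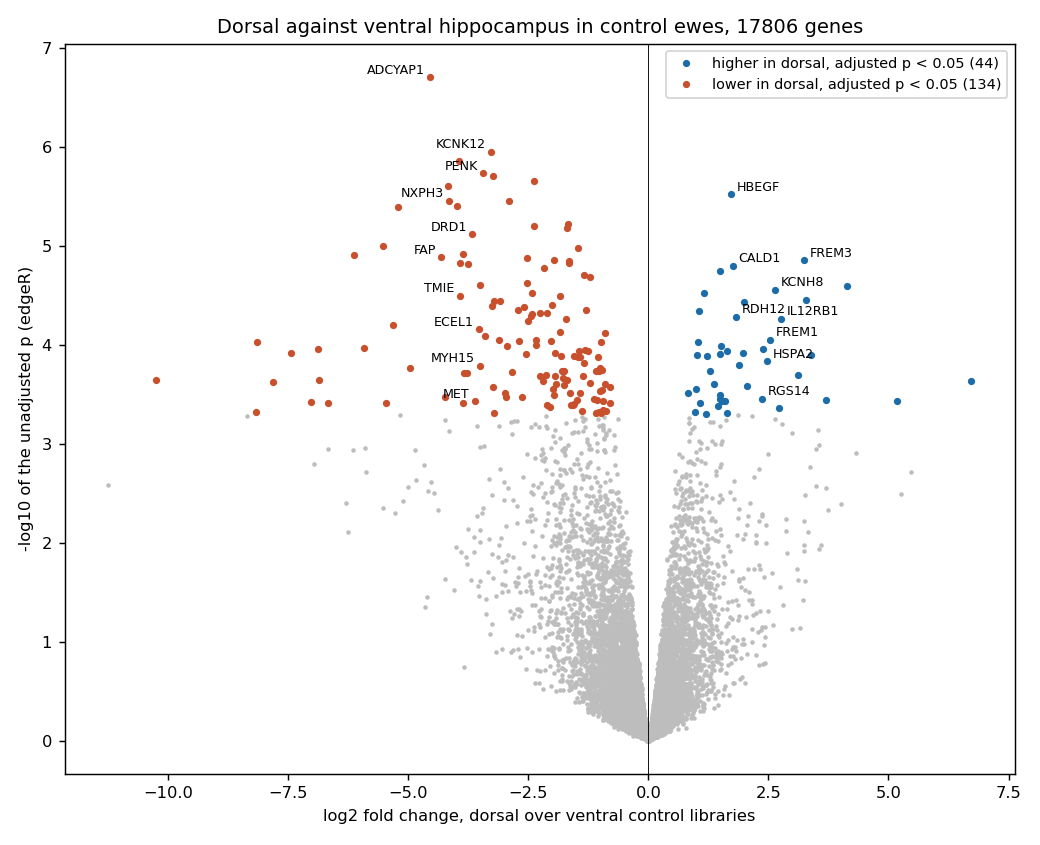
Log2 fold change of dorsal over ventral control libraries (x) against -log10 of the unadjusted p (y), 1 point per tested gene, with the called genes coloured. The called genes on the left, 134 lower in dorsal, outnumber the 44 on the right and reach larger changes.

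The 15 genes with the strongest ventral expression, ranked among called genes with a mean log2 CPM of at least 1, held 3 peptide genes, 2 receptors for peptides or amines and 10 genes of other roles. ADCYAP1, which encodes the neuropeptide PACAP, had the largest change among them: 1.10, 1.71 and 2.07 CPM in dorsal and 26.9, 48.8 and 37.8 CPM in ventral libraries. The groups lay far apart, with a log2 fold change of -4.54 ± 0.39, and an adjusted p of 0.00352 by edgeR, the smallest of all genes. PENK, the precursor of enkephalins, was at 4.59, 3.08 and 2.38 CPM in dorsal and 29.4, 51.1 and 28.8 CPM in ventral libraries (log2 fold change -3.44 ± 0.37). CRH, the peptide that starts the hormonal stress response, gave 0.748, 0.652 and 0.703 CPM in dorsal and 7.79, 9.18 and 3.33 CPM in ventral libraries (-3.26 ± 0.49). Ventral control 3 was the lowest of its group for CRH, and all ventral libraries stayed above the dorsal ones, as the ranking required. VIPR1, a receptor that binds PACAP and VIP, was at 1.24, 0.765 and 0.782 CPM against 9.81, 19.3 and 13.9 CPM (-3.94 ± 0.41). The dopamine receptor gene DRD1 was at 1.22, 1.93 and 1.52 CPM against 12.4, 25.3 and 21.9 CPM (-3.67 ± 0.45). Both receptor genes lay under 2 CPM in every dorsal control library.

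The other 10 genes had various roles. CPLX3, a complexin that regulates vesicle fusion, was measured at 1.77, 2.001 and 1.68 CPM in dorsal and 30.7, 40.4 and 26.9 CPM in ventral libraries (-4.16 ± 0.46 on the log2 scale). NXPH3, a secreted ligand of neurexins, was at 0.985, 1.91 and 1.45 CPM against 22.1, 35.8 and 19.1 CPM (-4.15 ± 0.47). NTNG1, a netrin-G that anchors axons to their target layers, was at 2.13, 3.04 and 3.56 CPM against 45.6, 54.4 and 38.5 CPM (-3.99 ± 0.46). In each of these genes the highest dorsal value was far below the lowest ventral value. MET, the receptor of hepatocyte growth factor, reached 0.906, 2.50 and 1.37 CPM against 6.71, 16.0 and 35.9 CPM (-3.61 ± 0.71), with a wide spread among ventral libraries. The potassium channel subunit genes KCNG1 and KCNK12 followed, with 2.93, 1.44 and 1.84 CPM against 41.6, 39.0 and 9.86 CPM (-3.86 ± 0.76) and 0.926, 1.69 and 1.25 CPM against 11.1, 12.5 and 14.0 CPM (-3.28 ± 0.34). KCNG1 was lowest in ventral control 3, whereas KCNK12 varied little among the ventral libraries. MET and KCNG1 did not pass with limma-voom or with counts thinned to equal depth. The remaining ones were the protease genes FAP (-4.31) and ECEL1 (-3.52), TMIE (-3.93), part of the hair cell transduction complex, and the myosin gene MYH15 (-3.50). Of the 15 calls the test kept 7, 6 and 1 without dorsal control 1, 2 and 3, and 14, 9 and 13 without ventral control 1, 2 and 3, and no log2 fold change moved by more than 0.79. Just outside stood BFSP2 (-3.24), a filament gene, and ASS1 (-3.23), an enzyme of arginine synthesis, against -3.26 for CRH just inside.

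On the dorsal side the 15 genes with the largest change held 2 transcription factors, 2 genes of one matrix family and 2 retinoid enzymes. ONECUT2, a homeodomain factor, was at 9.55, 12.8 and 10.2 CPM in dorsal and 1.75, 0.298 and 0.980 CPM in ventral libraries (log2 fold change 3.39 ± 0.58). ZNF488, a zinc finger repressor known from oligodendrocytes, was at 11.4, 7.80 and 11.2 CPM against 2.14, 0.645 and 0.644 CPM (3.12 ± 0.56). FREM3 and FREM1, large extracellular matrix proteins of basement membranes, were at 10.6, 16.8 and 14.2 CPM against 1.27, 0.992 and 2.07 CPM (3.25 ± 0.43) and 37.6, 52.2 and 37.6 CPM against 11.0, 4.27 and 6.61 CPM (2.54 ± 0.41). No dorsal library overlapped a ventral one in these 4 genes, as the ranking required. ALDH8A1, an aldehyde dehydrogenase that can form retinoic acid, was at 6.38, 12.6 and 11.5 CPM against 1.54, 0.496 and 1.04 CPM (3.28 ± 0.48). RDH12, a retinol dehydrogenase, was at 6.34, 6.68 and 6.02 CPM against 1.51, 1.79 and 2.07 CPM (1.82 ± 0.28).

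Other dorsal genes included a signalling regulator, a chaperone and genes of the cytoskeleton. RGS14, which limits plasticity at CA2 synapses, had a log2 fold change of 2.36 ± 0.46. HSPA2, a chaperone of the HSP70 family, was at 129.7, 146 and 137 CPM in dorsal and 41.2, 16.5 and 16.2 CPM in ventral libraries (2.48 ± 0.43). WIPF3, which acts on the actin cytoskeleton, was at 267, 300.1 and 252 CPM against 99.0, 53.7 and 52.4 CPM (2.00 ± 0.30), and CALD1, the actin binding protein caldesmon, at 388, 442 and 359 CPM against 138, 90.3 and 121 CPM (1.77 ± 0.24). In these 3 genes ventral control 1 was the highest ventral library. HBEGF, a ligand of the EGF receptor, varied little within either group, at 27.2, 25.8 and 25.9 CPM against 7.26, 8.28 and 8.29 CPM (1.73 ± 0.20, adjusted p 0.00603 by edgeR). The others were IL12RB1 (2.77), an interleukin receptor subunit, the potassium channel gene KCNH8 (2.64), GADL1 (2.39), a decarboxylase, and SCNN1B (1.96), a subunit of the epithelial sodium channel. Of these 15 calls the test kept 4, 1 and 0 without dorsal control 1, 2 and 3, and 15, 2 and 8 without ventral control 1, 2 and 3. The largest move of a log2 fold change was 0.84. LRRC3B, just outside, had a log2 fold change of 1.64, against 1.73 for HBEGF just inside.

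**Figure D3:**
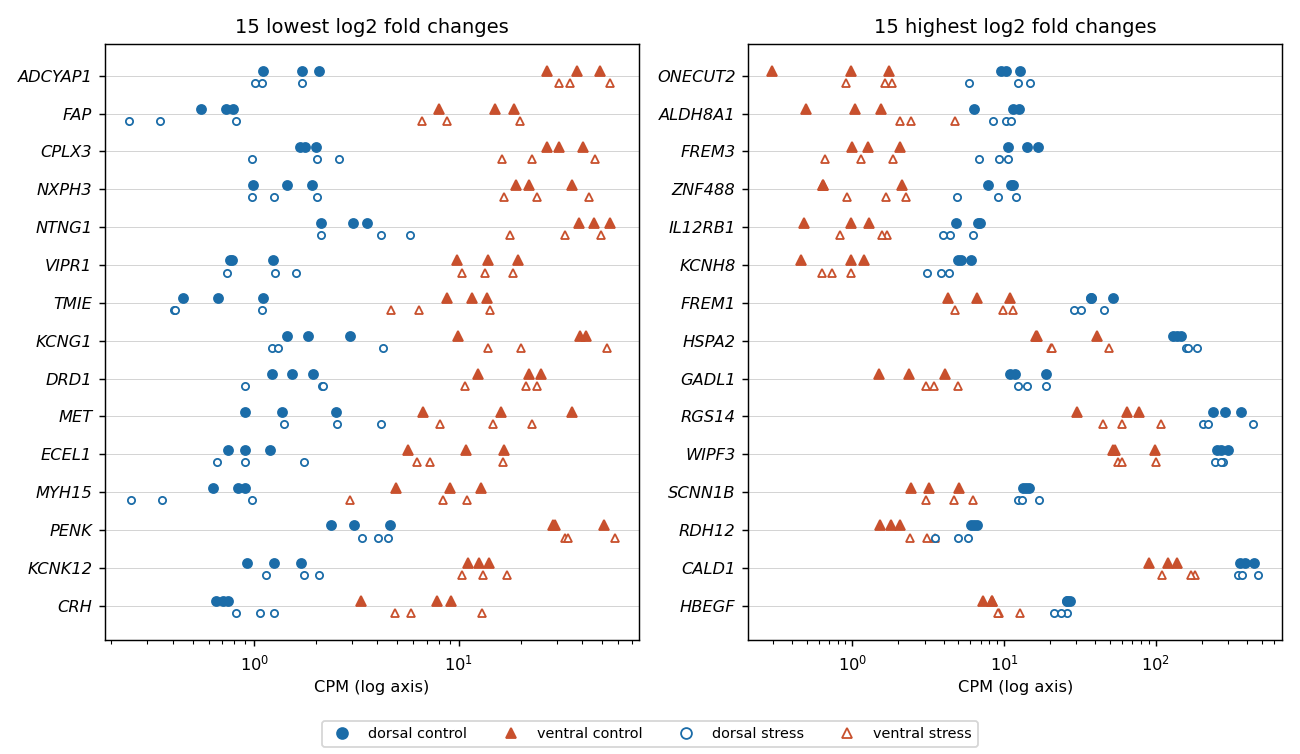
CPM on a log axis in each library for the 15 genes lowest in dorsal and the 15 genes highest in dorsal. Each library has 1 point, with a colour per region, filled for control and open for stressed libraries. In every row the dorsal and the ventral points of the control libraries do not overlap, which the choice of genes required. ADCYAP1, for example, has 1.10 to 2.07 CPM against 26.9 to 48.8 CPM in the control libraries.

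The gene lists below were chosen with earlier results of these data known, so their counts of calls are not independent of these data. Over all tested genes edgeR called 0.247% higher and 0.753% lower, and 3.25% were higher and 5.43% lower at an unadjusted p under 0.05. By edgeR 44.2% of the log2 fold changes lay above 0. DESeq2 called 249 higher and 479 lower of 17806 genes. Of the genes that mark the ventral pole of the rodent hippocampus, 1 of 12 tested, NR2F2, passed the test, and 11 had a log2 fold change below 0. The list held 0 higher and 7 lower at an unadjusted p under 0.05, and 0 higher and 5 lower by DESeq2 (DCN, ETV1, NNAT, TOX3 and NR2F2). Its median was -1.43. NR2F2, a nuclear receptor also called COUP-TFII, was at 10.7, 9.94 and 11.6 CPM in dorsal and 46.3, 60.9 and 59.8 CPM in ventral libraries (-2.37 ± 0.26). Among 5 tested dorsal pole markers edgeR called 0, with 1 higher and 2 lower at an unadjusted p under 0.05, and DESeq2 called SPATA13. SPATA13, a guanine nucleotide exchange factor, had 0.85 ± 0.18 with an adjusted p of 0.0540. WFS1, an endoplasmic reticulum protein of CA1 neurons, had -0.93 ± 0.46 with an adjusted p of 0.666. The median of that list was -0.89, so its middle value was on the ventral side.

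Subfield markers mostly did not pass. RGS14 was the 1 call among 8 CA2 markers, MPPED1 (-1.67), a phosphodiesterase, the 1 among 7 CA1 markers and SIPA1L2 (1.03) the 1 among 10 dentate markers. DESeq2 called 2, 1 and 2 genes of these 3 lists, and 2, 3 and 4 were at an unadjusted p under 0.05. Of 8 CA3 markers edgeR called 0, with 5 at an unadjusted p under 0.05 and 3 called by DESeq2 (CPNE4, KCNQ5 and CHGB). Of 8 mossy cell markers 0 reached an unadjusted p under 0.05. PROX1 had a log2 fold change of 1.05 ± 1.06 and an adjusted p of 1.00. Of 9 subiculum markers 3 were lower in dorsal: NTNG1, the zinc finger gene TSHZ2 (-2.55) and NTS (-2.14), the precursor of neurotensin. SLC17A6, a vesicular glutamate transporter of subicular and thalamic neurons, had -3.56 ± 0.75 and an adjusted p of 0.0558. NPNT, a matrix protein gene, had 0.65 ± 0.17 (adjusted p 0.133), and TLE4 (-0.08), FEZF2 (-0.21) and ROBO1 (-0.33) were nearer to 0. The list held 1 higher and 5 lower at an unadjusted p under 0.05, and 1 higher and 4 lower by DESeq2. Its median was -1.12.

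Markers of neighbouring tissue were looked at beside these groups. DRD1 and PENK were the 2 of 10 striatal markers that passed, and the summed level of that list was 180.4 to 227 CPM in dorsal and 225 to 253 CPM in ventral libraries. PRKCD (-1.62), a kinase gene, was the 1 of 7 thalamic markers, with summed levels of 286 to 336 CPM in dorsal and 318 to 563 CPM in ventral libraries. Of 11 neocortical and entorhinal markers CPLX3 was lower and LAMP5 (0.99), a membrane protein of a class of interneurons, was higher in dorsal. Of 7 amygdala markers edgeR called 0, with 3 at an unadjusted p under 0.05, and DESeq2 called 2, LYPD1 and ETV1, both lower. DESeq2 called 3 striatal, 2 thalamic and 3 neocortical markers. The part of neighbouring tissue in the regional calls was not tested. Of the 12 distinct calls of these lists the test kept 5, 3 and 0 without dorsal control 1, 2 and 3, and 11, 7 and 8 without ventral control 1, 2 and 3.

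Of 25 neuropeptide genes 4 were lower in dorsal (ADCYAP1, PENK, CRH and NTS) and none was higher, and the list's median was -1.10, against -0.04 over all genes. The list held 0 higher and 10 lower at an unadjusted p under 0.05, and 0 higher and 8 lower by DESeq2. NTS was at 3.68, 4.97 and 4.14 CPM in dorsal and 11.9, 25.1 and 19.4 CPM in ventral libraries. CARTPT, the precursor of CART peptides, was at 8.09, 2.23 and 3.60 CPM against 207, 12.5 and 3.84 CPM. Its difference of -4.00 ± 1.30 did not pass by edgeR (adjusted p 0.267), while DESeq2 called it. Ventral control 1 lay far above the others, and the regions overlapped. CCK, the cholecystokinin gene, was at 42.5, 20.4 and 28.3 CPM against 167, 105 and 46.3 CPM (-1.80 ± 0.60, adjusted p 0.280), without overlap of the regions. The CRH system was also measured beyond its ligand: CRHBP, which binds CRH, had -1.83 ± 0.58 (adjusted p 0.245), and the receptor genes CRHR1 and CRHR2 had -0.94 ± 0.44 and -2.15 ± 0.50 (adjusted p 0.617 and 0.0860). None of these 3 passed by edgeR. DESeq2 called CRHBP and CRHR2, both lower, and did not call CRHR1.

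Among 23 peptide receptor genes 3 were lower in dorsal and none higher, with a median of -0.94. The list held 1 higher and 11 lower at an unadjusted p under 0.05, and 1 higher and 9 lower by DESeq2, the higher one being NPY5R (1.13). The 3 edgeR calls were VIPR1, the orexin receptor gene HCRTR1 (-2.64) and the substance P receptor gene TACR1 (-2.42). HCRTR1 did not pass with limma-voom, the replicate block or thinned counts (adjusted p 0.0664, 0.0921 and 0.0566). Such losses were not limited to HCRTR1. HTR1D, GRM8 and PRKCD did not pass with limma-voom or thinned counts, and CLDN2 did not with the replicate block or thinned counts. Over the 178 calls limma-voom kept 158, the replicate block 109, and thinned counts 125 of 174 tested. TACR1 was at 0.630, 0.967 and 1.13 CPM in dorsal and 3.61, 5.95 and 5.01 CPM in ventral libraries. PAC1, the main receptor of PACAP and encoded by ADCYAP1R1, had 0.01 ± 0.16, and its dorsal and ventral libraries overlapped. The glucagon-like peptide receptor gene GLP1R, which was in no list, was higher in dorsal (1.45). Among the 7 list calls of peptides and receptors the test kept 3, 3 and 1 without dorsal control 1, 2 and 3, and 7, 3 and 6 without ventral control 1, 2 and 3.

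Monoamine receptors had 2 of 20 genes lower in dorsal, DRD1 and the serotonin receptor gene HTR1D (-3.84), with a list median of -1.02. HTR1D was at 0.0394, 0.157 and 0.117 CPM against 0.649, 2.33 and 1.62 CPM. The serotonin receptor gene HTR2A was at 0.0591, 0.585 and 0.469 CPM against 0.361, 3.42 and 11.5 CPM (-3.79 ± 1.29, adjusted p 0.303), with overlapping groups. Of 11 acetylcholine receptors the muscarinic gene CHRM4 (-2.25) was the 1 call, at 3.15, 2.83 and 3.60 CPM against 12.6, 20.9 and 12.0 CPM. Of 22 glutamate receptor genes 1 was called, GRM8 (-2.05), a presynaptic metabotropic receptor. DESeq2 called 6 monoamine, 3 acetylcholine and 2 glutamate receptor genes, all lower, and 11, 3 and 7 were at an unadjusted p under 0.05. All 14 GABA-A receptor subunit genes had a log2 fold change below 0, with a median of -0.73, while 44.2% of all tested genes had one above 0. Of these 14 genes edgeR called 0, with 5 at an unadjusted p under 0.05, while DESeq2 called 2 (GABRA3 and GABRE). GABRA5, a subunit of extrasynaptic receptors, had -0.48 ± 0.19 (adjusted p 0.432). The GABA-A genes also followed the within-group axis, with a median r of 0.898, and the part of that axis in their level was not tested. Of the 4 receptor calls the test kept 0, 0 and 0 without dorsal control 1, 2 and 3, and 4, 1 and 2 without ventral control 1, 2 and 3.

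The channel lists held 2 calls among 25 genes and 1 among 23, while 1.00% of all tested genes were called. Among 25 voltage-gated potassium channel genes KCNS2 (1.52), a silent modulatory subunit, was higher and KCNG1 lower in dorsal. Among 23 sodium and calcium channel genes CACNA2D2 (-1.43), an accessory calcium channel subunit, was lower. The potassium list held 2 higher and 5 lower at an unadjusted p under 0.05, and 1 higher and 3 lower by DESeq2, and the sodium and calcium list 0 higher and 2 lower at an unadjusted p under 0.05, and 0 higher and 1 lower by DESeq2. The lists leave out other called channel genes: KCNH8 (2.64), SCNN1B (1.96) and CACNG6 (2.73), which were higher, and KCNK12 (-3.28), which was lower. Of 27 genes of vesicle release and synapse organisation 3 were lower and none higher: NXPH3, CPLX3 and STX1A (-0.97), a syntaxin of the presynaptic membrane. That list held 3 higher and 8 lower at an unadjusted p under 0.05, and 1 higher and 5 lower by DESeq2. STX1A was at 74.9, 66.6 and 72.5 CPM in dorsal and 146, 161 and 111 CPM in ventral libraries. A pair of calcium sensor genes outside the lists were also lower in dorsal, VSNL1 (-1.05) and NCALD (-1.46). Of these 6 list calls the test kept 2, 2 and 0 without dorsal control 1, 2 and 3, and 5, 2 and 4 without ventral control 1, 2 and 3.

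Of 38 axon guidance genes edgeR called 5, all lower in dorsal. The list held 5 higher and 9 lower at an unadjusted p under 0.05, and 5 higher and 8 lower by DESeq2. The 5 higher by DESeq2 were EPHB1 (0.86), EPHA7 (1.71), SEMA5A (1.13), SLIT1 (0.48) and NRP1, which was at 61.7, 124 and 101 CPM against 26.8, 26.9 and 47.4 CPM; none of them passed by edgeR. Beside NTNG1 the edgeR calls were EFNA5 (-2.41), a repulsive ephrin, SLIT2 (-1.98), a ligand of Robo receptors, and the semaphorin receptor genes PLXND1 (-1.03) and NRP2, which was at 51.3, 51.7 and 45.8 CPM against 79.3, 97.4 and 120.1 CPM. EFNA5 was at 2.68, 2.18 and 3.71 CPM in dorsal and 11.9, 15.6 and 18.0 CPM in ventral libraries, and SLIT2 at 18.1, 17.5 and 24.9 CPM against 49.5, 74.3 and 115 CPM. SEMA7A, a membrane-bound semaphorin outside the list, went the other way with 1.64 ± 0.28, at 101, 113 and 109 CPM against 45.1, 29.7 and 29.2 CPM. GAP43, a growth cone protein also outside the list, was lower in dorsal, at 159, 119 and 136 CPM against 629.7, 805 and 429 CPM (-2.17 ± 0.29).

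Adhesion and matrix genes were called in both directions. CDH13 (-1.80) and CDH18 (-1.64) were lower among 27 cadherins, which held 2 higher and 7 lower at an unadjusted p under 0.05, and 1 higher and 4 lower by DESeq2. Of 32 matrix genes FREM3 and FREM1 were higher, and FRAS1 (-2.45) and HAPLN4 (-2.68) lower. The matrix list held 4 higher and 10 lower at an unadjusted p under 0.05, and 3 higher and 5 lower by DESeq2. FRAS1 encodes a protein of the same basement membrane family as the FREM proteins and was at 6.40, 7.56 and 6.17 CPM in dorsal and 18.8, 39.2 and 52.3 CPM in ventral libraries. HAPLN4, a link protein of perineuronal nets, was at 43.6, 35.0 and 29.5 CPM against 294, 279 and 121 CPM. FREM2, the other FREM gene of the list, had -0.42 ± 0.69 (adjusted p 1.00), with overlapping regions. Of these 4 related genes 2 were higher, 1 was lower and 1 did not pass. Among the 11 calls of guidance, adhesion and matrix genes the test kept 2, 0 and 0 without dorsal control 1, 2 and 3, and 11, 1 and 6 without ventral control 1, 2 and 3.

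Of 36 patterning transcription factor genes 3 were higher in dorsal (ONECUT2, ZNF488 and BHLHE22, 1.53) and 3 lower (NR2F2, TSHZ2 and LHX6, -0.94). This list and the others of this paragraph were chosen with earlier results of these data known. The list held 6 higher and 10 lower at an unadjusted p under 0.05, against 3.25% and 5.43% of all tested genes. By DESeq2 it held 4 higher and 9 lower. BHLHE22, a helix-loop-helix factor of projection neurons, was at 130.5, 158 and 124 CPM in dorsal and 42.0, 41.7 and 59.6 CPM in ventral libraries. LHX6, which specifies interneurons of the medial ganglionic eminence, was at 15.1, 18.9 and 17.0 CPM against 26.9, 35.8 and 34.9 CPM. EOMES, a factor of newborn glutamatergic neurons, was at 1.63, 2.29 and 2.42 CPM against 0.240, 0.149 and 0.0840 CPM, with a log2 fold change of 3.69 ± 0.95 and an adjusted p of 0.132. Of 31 Wnt genes WNT4 (-2.26) was lower. ALDH8A1 was the 1 call among 19 retinoid and thyroid hormone genes, and HSPA2 the 1 among 17 heat shock genes. DESeq2 called 2 Wnt, 5 retinoid and thyroid, 1 heat shock and 3 immediate early genes. The activity-regulated factor NPAS4 was the 1 call of 19 immediate early genes, at 1.00, 1.57 and 3.32 CPM against 8.005, 12.8 and 24.6 CPM (-2.96 ± 0.57). Of the 10 calls the test kept 2, 1 and 0 without dorsal control 1, 2 and 3, and 9, 2 and 4 without ventral control 1, 2 and 3.

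Cell type markers were measured to describe the makeup of the samples. Of 18 interneuron markers LAMP5 was higher, and LHX6 and NOS1 (-1.84), the neuronal nitric oxide synthase, were lower. That list held 2 higher and 7 lower at an unadjusted p under 0.05, and its median was -0.66. Its summed level was 811 to 892 CPM in dorsal and 1082 to 1218 CPM in ventral libraries. SST, the somatostatin gene, was listed at 0 counts in all 12 libraries and was not interpreted. Among excitatory neuron markers BHLHE22 was the 1 of 11 called. The excitatory list held 3 higher and 2 lower at an unadjusted p under 0.05. DESeq2 called 5 interneuron markers (1 higher and 4 lower) and 3 excitatory neuron markers (2 higher and 1 lower). Of 70 markers of astrocytes, oligodendrocyte precursors, microglia, vessels, blood and ependyma edgeR and DESeq2 called 0, with 2 at an unadjusted p under 0.05. All 16 oligodendrocyte and myelin genes had a log2 fold change above 0, against 44.2% of all tested genes, with a median of 0.48. Of these 16 genes edgeR and DESeq2 called 0 (2 at an unadjusted p under 0.05). Their summed level was 9075 to 11914 CPM in dorsal and 4285 to 9051 CPM in ventral libraries.

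CLDN2, a claudin of the choroid plexus epithelium, was the 1 call among 12 choroid plexus markers, at 1.60, 1.39 and 1.91 CPM in dorsal and 0.240, 0.0496 and 0.0560 CPM in ventral libraries (3.69 ± 0.72). TTR, transthyretin of the same epithelium, was at 2806, 636 and 1236 CPM against 413, 33.9 and 45.3 CPM (3.25 ± 0.95, adjusted p 0.194). Other members lay on the ventral side without passing by edgeR: SOSTDC1 (-2.35, adjusted p 0.191), KL (-1.40) and SLC4A5 (-0.71). The list held 5 higher and 1 lower at an unadjusted p under 0.05, and 5 higher and 1 lower by DESeq2. The summed choroid plexus level was 892 to 3005 CPM in dorsal and 181 to 555 CPM in ventral libraries, highest in dorsal control 1, and the list's median was 1.03. Meningeal fibroblast genes had 0 of 12 called by edgeR, 1 higher and 8 lower at an unadjusted p under 0.05, 5 called lower by DESeq2, a median of -1.10 and summed levels of 199.95 to 312 CPM in dorsal and 435 to 779 CPM in ventral libraries. Pituitary hormone genes summed to 113 to 152 CPM in dorsal and 7.59 to 101 CPM in ventral libraries, with 0 of 6 called by edgeR, 1 at an unadjusted p under 0.05 and 1 by DESeq2, POMC. The part of these tissues in the regional calls was not tested. Of the 5 calls on cell type lists the test kept 0, 0 and 0 without dorsal control 1, 2 and 3, and 3, 0 and 1 without ventral control 1, 2 and 3.

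Genes of stress hormone sensing and of trophic support were read next. Of 11 corticosteroid genes edgeR called 0, with 1 at an unadjusted p under 0.05, and DESeq2 called that gene, NR3C2. NR3C2, the mineralocorticoid receptor gene, had 0.88 ± 0.24 (adjusted p 0.157), and NR3C1, the glucocorticoid receptor gene, had -0.20 ± 0.42 (adjusted p 1.00). BDNF, a neurotrophin, was at 29.1, 41.4 and 43.2 CPM against 17.5, 10.8 and 14.7 CPM (1.40 ± 0.34, adjusted p 0.104), and among 22 growth factor genes edgeR called 0, with 7 at an unadjusted p under 0.05, and DESeq2 called BDNF and FGF13. All 16 cholesterol synthesis genes had a log2 fold change below 0, while 44.2% of all tested genes had one above 0. For these 16 genes edgeR made no call (6 at an unadjusted p under 0.05, 4 called by DESeq2). None of 13 respiratory chain genes reached an unadjusted p under 0.05. A p above the threshold does not show that the regions did not differ.

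**Figure D4:**
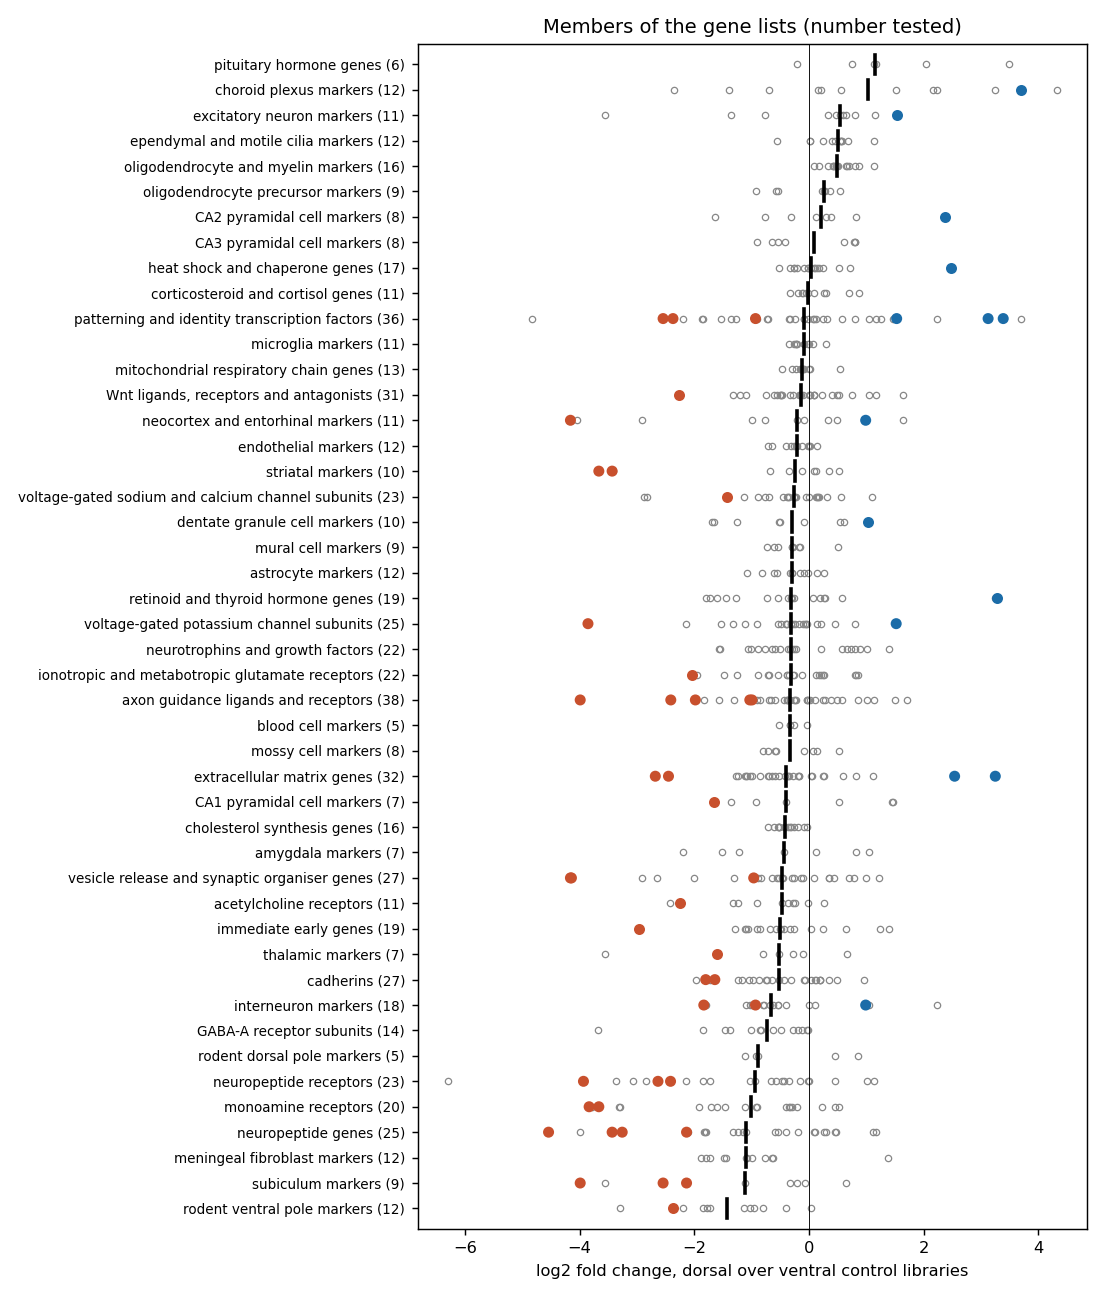
Log2 fold change of dorsal over ventral control libraries (x) for each tested member of the gene lists (rows, with the number tested), 1 point per gene, called genes coloured and a bar at each list's median. Neuropeptide, peptide receptor and subiculum genes have medians of -1.10, -0.94 and -1.12, and most points are not called.

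The same genes were then read in the stressed ewes, which are other animals and other libraries. Both conditions shared 1 estimate of the spread in the fit, so the stressed libraries also bore on which 178 genes were called. In the stressed ewes 79 genes (0.444%) were called, 15 higher and 64 lower in dorsal. All 178 control genes had the same sign in stressed ewes, which held for 72.1% of all genes, 176 had an unadjusted p under 0.05, against 7.86%, and 176 had regional libraries without overlap, against 13.7%. At an adjusted p under 0.05 in the stressed ewes were 74 of the 178, which is 41.6% of the control calls and 93.7% of the stressed calls. When the 6 stressed libraries were fitted alone, 169 of the 174 control genes tested there had an unadjusted p under 0.05, against 8.19% of all genes, and none was called. ADCYAP1 was at 1.09, 1.01 and 1.72 CPM in dorsal and 30.9, 54.8 and 34.9 CPM in ventral stressed libraries, with a log2 fold change of -4.99. CRH had -2.91, FREM3 2.87 and RGS14 2.01 there.

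The regional difference itself was compared between control and stressed ewes. edgeR called 0 genes for that difference, with 46 (0.258%) at an unadjusted p under 0.05, and DESeq2 also called 0, with 80 at an unadjusted p under 0.05. Over the 178 genes the median standard error of the difference was 0.45 on the log2 scale. Among the control calls with a mean log2 CPM of at least 1 the largest difference was 1.59, in ALDH8A1 (3.28 in control and 1.69 in stressed ewes), and it did not pass. A difference that did not pass is not shown to be absent. The stress values were nearer to 0 in 142 of the 178 genes, which were selected on the control comparison. CAMK1G, a calcium dependent kinase, had the smallest p of the difference: -0.91 in control and -0.18 in stressed ewes. POMC, the precursor of ACTH, had 3.49 ± 0.89 in control, where it was at 96.2, 26.8 and 17.4 CPM against 4.74, 3.82 and 3.92 CPM (adjusted p 0.129), and -0.64 in stressed ewes.

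**Figure D5:**
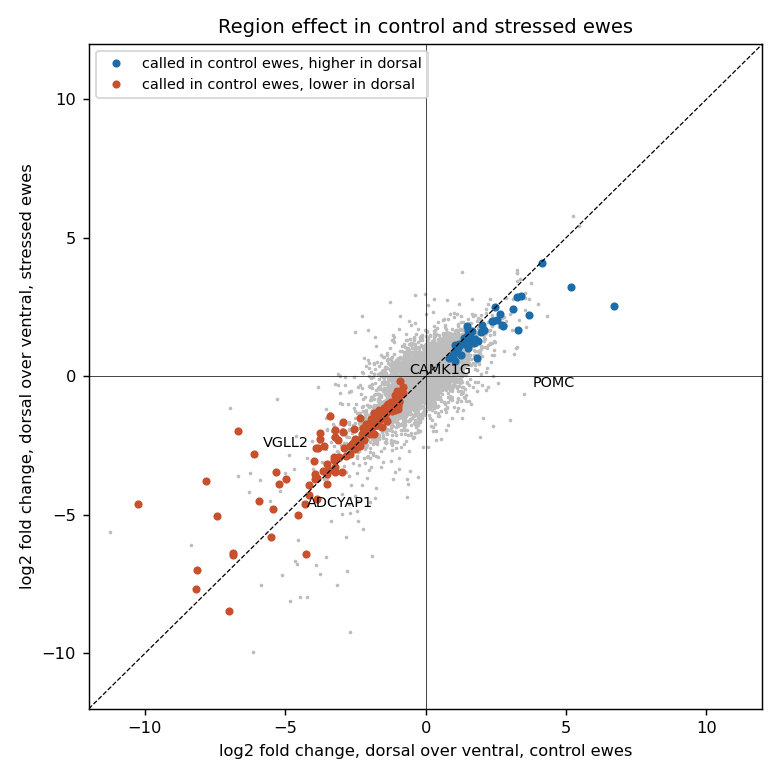
Log2 fold change of dorsal over ventral in control (x) and in stressed ewes (y), 1 point per tested gene, with genes called in control ewes coloured. All 178 called genes have the same sign on both axes.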

How the data were processed

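Whole gene counts for the 12 libraries were deposited by the authors as 1 table. Libraries were made with TriReagent and the TruSeq stranded mRNA kit, per the labels' protocols. The submitters' processing notes name TopHat2 2.1.1 and Bowtie2 2.3.5.1 as aligners, featureCounts 2.0.0 for counting, and SAMtools 1.9, FastQC and bcl2fastq 2.20. Genome build, annotation, strand setting and treatment of multiple matches count as not given in the sources used here, so no coordinates are printed. Reads of antisense partners and of close gene copies may be mixed. RefSeq names of assembly ARS-UI_Ramb_v3.0 matched 28100 IDs and named 412 placeholder genes.

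Of 33609 genes 9337 had no count and 17806 passed filterByExpr. Counts of all 12 libraries were fitted in R 4.3.3 with edgeR 4.0.16 (TMM, robust quasi-likelihood, 4 group means). The F test used Benjamini-Hochberg adjustment over all tested genes, with a call at 0.05. Contrasts were dorsal against ventral in control ewes, in stressed ewes, and their difference. Standard errors were derived from the fold change and F. DESeq2 1.42.0 and limma 3.58.1 (voom) were alternatives, with other size factors, filters, thinned counts, a replicate block, the 6 libraries alone and each control library left out. The script was tested on simulated data. Named genes were the 15 largest changes each way among 137 called genes, and up to 4 per list. The 137 had a mean log2 CPM of 1 or more and regional libraries that did not overlap. The 46 lists hold 700 genes, of which 652 were tested. Members and lists were chosen with earlier results of these data known, and genes from no list were chosen after their values were seen. No columns were left out, and no 2 libraries of a group held the same counts (lowest chi-square over degrees of freedom 20.2).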

Additional observations from a re-analysis of the deposited data

How the results depend on the processing

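The direction of the 178 genes called in control ewes was the same in every alternative in which they were tested, while the number of calls was not. The regional libraries of these genes did not overlap and the counts were the same, so the constant direction is no separate support. DESeq2 called 728 (249 higher, 479 lower), the 6 control libraries alone 0 (0 higher, 0 lower), and, among alternatives chosen after seeing the data, the first residual factor as a covariate 2003 (943 higher, 1060 lower) and the omission of both control libraries 1 58 (17 higher, 41 lower). With 1 control library left out the count ranged from 2 to 319, with 0 to 93 higher and 2 to 226 lower. RLE size factors (172), no filter (140), a minimum of 1 CPM in 3 libraries (189), limma-voom (193) and thinned counts (130) stayed within 1.5 times of 178. In stressed ewes 79 calls became 580 with DESeq2, 27 with limma-voom, 1589 with the residual factor and 45 to 159 without 1 control library. The difference between conditions had 0 calls in all of these. With a replicate block the control count was 156 (40 higher, 116 lower; 109 of the 178 kept), the stressed count 57 and the difference 0. Dorsal and ventral deviations of the same number correlated at 0.717, -0.119 and 0.373 in control and 0.208, -0.233 and 0.761 in stressed ewes, and dorsal control 2 correlated best with ventral control 3 (0.679), so the numbers were not taken as pairs. Where a call was lost, the cause was not tested. Depth limits genes of low count: 1 CPM is 19.8 counts in ventral control 2.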

Other observations

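The genes given here were called, are in no list and were chosen after their values were seen. SLC22A8, an organic anion transporter of brain barriers, was at 4.21, 2.204 and 10.6 CPM in dorsal and 35.3, 67.7 and 31.7 CPM in ventral libraries, a log2 fold change of -2.99 ± 0.57. SLC26A11, an anion transporter, was at 323, 298 and 271 CPM against 633, 763 and 669 CPM (-1.21 ± 0.17), SLC24A3, a sodium and calcium exchanger, at 118, 88.4 and 83.7 CPM against 240.1, 225 and 153 CPM (-1.09 ± 0.22), and SLC6A11, the GABA transporter GAT3, at 29.8, 27.3 and 31.0 CPM against 46.9, 57.9 and 57.8 CPM (-0.89 ± 0.18). All 4 were lower in dorsal. Without 1 control library in turn, the calls were kept, in this order, in 2, 2, 1 and 1 of 6 fits.

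COL13A1, a transmembrane collagen, was at 8.53, 8.84 and 9.77 CPM against 36.2, 62.8 and 42.4 CPM (-2.38 ± 0.29), THBS4 and THBS2, secreted thrombospondins, at 1.44, 0.989 and 2.15 CPM against 7.02, 14.5 and 8.35 CPM (-2.71 ± 0.41) and 3.19, 4.39 and 6.14 CPM against 9.95, 18.9 and 11.5 CPM (-1.56 ± 0.31). These 3 were lower in dorsal and kept their call in 4, 2 and 1 of 6 such fits. GNG4, a G protein subunit gene, was at 69.6, 62.4 and 73.6 CPM against 160.2, 159 and 187 CPM (-1.30 ± 0.20; 2 of 6). NPAS2, a clock transcription factor, was at 15.4, 14.4 and 14.8 CPM against 24.6, 36.9 and 29.5 CPM (-1.03 ± 0.21; 1 of 6). Without dorsal control 3 none of these 9 genes was called.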
